A study of Mus musculus with 15 samples.

Results

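The 10 genes described here encode the subunits and cofactors of Polycomb repressive complex 2 (PRC2): *Ezh1*, *Ezh2*, *Eed*, *Suz12*, *Jarid2*, *Aebp2*, *Mtf2*, *Phf1*, *Phf19* and *Rbbp4*. They were chosen by name, with Ensembl identifiers of the count table paired with GENCODE M21 symbols, out of 55536 genes in the table. All 10 passed the filter on low counts, as did 18090 genes in all. PRC2 places methyl groups on lysine 27 of histone H3, a mark of repressed developmental genes. EZH2 or its paralog EZH1 is the catalytic subunit, EED binds the methylated lysine and stimulates the enzyme, SUZ12 is the scaffold, and RBBP4 is a histone-binding WD40 protein shared with other chromatin complexes. On this core, the Polycomb-like proteins MTF2, PHF1 and PHF19 define the form of the complex called PRC2.1, and JARID2 and AEBP2 define the form called PRC2.2. Mouse primordial germ cells (PGCs), the precursors of sperm and oocytes, are known for a large-scale rearrangement of histone marks soon after they are specified, including a gain of methylation at this lysine.

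The samples followed the route from naive embryonic stem cells (ESCs) to epiblast-like cells (EpiLCs) and PGC-like cells (PGCLCs), with 3 libraries in each of 5 groups. All groups came from mouse ESCs that carry the Stella-eGFP reporter and transgenes for *Prdm1*, *Prdm14*, *Tfap2c* and *Nanog* (4TF) under doxycycline (Dox) control, isolated as a clonal line. ESCs were grown in 2i+LIF medium without Dox, and EpiLCs were harvested after 48 hours in 20 ng/ml Activin A and 12 ng/ml bFGF. For PGCLCs, EpiLC aggregates received 2 µg/ml Dox from day 0 in place of cytokines, and Stella-eGFP+ cells were taken on day 2 (D2PGCLC), day 4 (D4PGCLC) and day 6 (D6PGCLC). The sort therefore selected on a PGC gene, and the ESC and EpiLC libraries were not sorted on it. Nothing in the labels says that the 3 libraries of a group came from separate cultures, so the p-values measure the spread between libraries, which may be technical.

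Total counts ran from 22555021 to 42725681 per library, and the groups matched their labels. The 6 naive ESC markers summed to 1744 to 1774 CPM (counts scaled to the library size) in ESCs, 371 to 373 CPM in EpiLCs and 968 to 1409 CPM in PGCLCs. From EpiLCs to D2PGCLCs 5 of the 6 were higher (27.2% of all tested genes) and 1, *Klf4*, was lower (26.0% of all). The 4 EpiLC markers summed to 135 to 142 CPM in ESCs and 1824 to 1966 CPM in EpiLCs. Most of this sum was *Dnmt3b*, at 134 mean CPM in ESCs and 1558 in EpiLCs, while *Fgf5* went from 0.0122 to 58.5. The 7 PGC markers summed to 132 to 138 CPM in ESCs, 232 to 240 CPM in EpiLCs and 1001 to 1363 CPM over the 9 PGCLC libraries. Of these, *Prdm1* and *Tfap2c* are also transgenes, and *Dppa3* is Stella, the gene of the sorted reporter. In D2PGCLCs *Dppa3* had 452 mean CPM, *Tfap2c* 232 and *Prdm1* 106, against 85.2, 56.1 and 71.6 in EpiLCs. The sum is thus not independent of the sort and the induction, and their part in it was not tested. *Dnd1*, *Itgb3*, *Nanos3* and *Dazl* are neither transgenes nor the reporter gene. All 7 were higher in D2PGCLCs than in EpiLCs (27.2% of all tested genes were). From D2PGCLCs to D6PGCLCs 1 of the 7 was higher (19.5% of all), *Dazl*, from 39.1 to 428 mean CPM, and 4 were lower (18.2% of all). Markers of fibroblasts were highest in EpiLCs, at 24.0 to 25.1 CPM for the 7 genes together, against 7.72 to 8.41 CPM in ESCs and 0.919 to 2.19 CPM in PGCLCs; *Lum* and *Postn* did not pass the filter. The part of such cells in the values below was not tested. Markers of endoderm (6 genes) summed to 3.83 to 23.8 CPM over all libraries, the highest in D6PGCLCs. There *Gata6* (9.25 mean CPM) and *Cxcr4* (5.94) made up most of the sum. *Cxcr4* had its highest mean in D2PGCLCs (9.39), where *Gata6* was at 0.244, so these 2 did not share a course. *Gata4* was at 1.94 mean CPM in D6PGCLCs and 4.35 in ESCs, and *Foxa2* at 0.0262 in D6PGCLCs and 1.04 in EpiLCs. Against ESCs, 3 of the 6 were higher in D6PGCLCs (27.7% of all tested genes) and 1 lower (26.0% of all). Replicate 1 of D6PGCLC had 18061 detected genes, against 21103 to 24343 in the other 14 libraries. In the 3 comparisons with D6PGCLC the numbers of PRC2 genes that passed did not change without this library. The calls of *Ezh1* and *Phf1* in D6PGCLCs against ESCs did change.

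Promoters are shown for the member that rose most, *Phf19*, for the scaffold gene *Suz12* and for *Eed*, the core gene that fell most. RefSeq windows (GRCm38.p6, from 250 bases before to 50 bases after a start site) were found for all 10 members, 14 windows in all, and were searched on both strands for TTCCCGC, the core bound by E2F factors, for GCCNNNGGC, the palindrome of the TFAP2 family, and for GTCTCTA, the core of the PRDM14 motif. TTCCCGC was in 4.60% of all 32851 windows, GCCNNNGGC in 16.6% and GTCTCTA in 3.30%. Only the windows of *Suz12* and *Phf19* held TTCCCGC or its complement, with 1 match each. The *Phf19* window also held 1 match to GCCNNNGGC, downstream of the stretch shown, and GTCTCTA was in none of the 14. The part of each window upstream of the annotated start is printed 5′ to 3′ on the gene's strand, with matches in capitals. A match is no evidence that a factor binds there.
Phf19, chr2:34914027-34914226, minus strand: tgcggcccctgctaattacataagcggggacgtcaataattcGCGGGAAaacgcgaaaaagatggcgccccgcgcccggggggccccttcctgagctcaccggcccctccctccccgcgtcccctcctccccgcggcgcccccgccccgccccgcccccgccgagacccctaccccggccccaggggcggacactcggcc
Suz12, chr11:79992856-79993105, plus strand: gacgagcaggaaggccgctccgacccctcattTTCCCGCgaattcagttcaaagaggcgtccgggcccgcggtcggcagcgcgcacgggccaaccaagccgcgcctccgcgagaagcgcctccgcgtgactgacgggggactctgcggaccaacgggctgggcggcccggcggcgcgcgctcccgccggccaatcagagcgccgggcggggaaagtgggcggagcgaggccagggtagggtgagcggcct
Eed, chr7:89980984-89981226, minus strand: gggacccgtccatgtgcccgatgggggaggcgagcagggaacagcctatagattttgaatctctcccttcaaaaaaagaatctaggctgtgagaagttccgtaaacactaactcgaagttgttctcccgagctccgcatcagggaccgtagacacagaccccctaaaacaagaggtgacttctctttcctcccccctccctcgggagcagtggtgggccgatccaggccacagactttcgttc

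Levels are given as CPM after TMM normalization, means as ± SD with n = 3. A gene passed when its adjusted p was under 0.05 in edgeR's quasi-likelihood test, with Benjamini-Hochberg adjustment over all tested genes; it was a differentially expressed gene (DEG) when its log2 fold change was also above 1 or below -1. Values are RNA per library, so in these bulk samples a smaller share of expressing cells and less RNA per cell cannot be told apart.

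**Figure D1:**
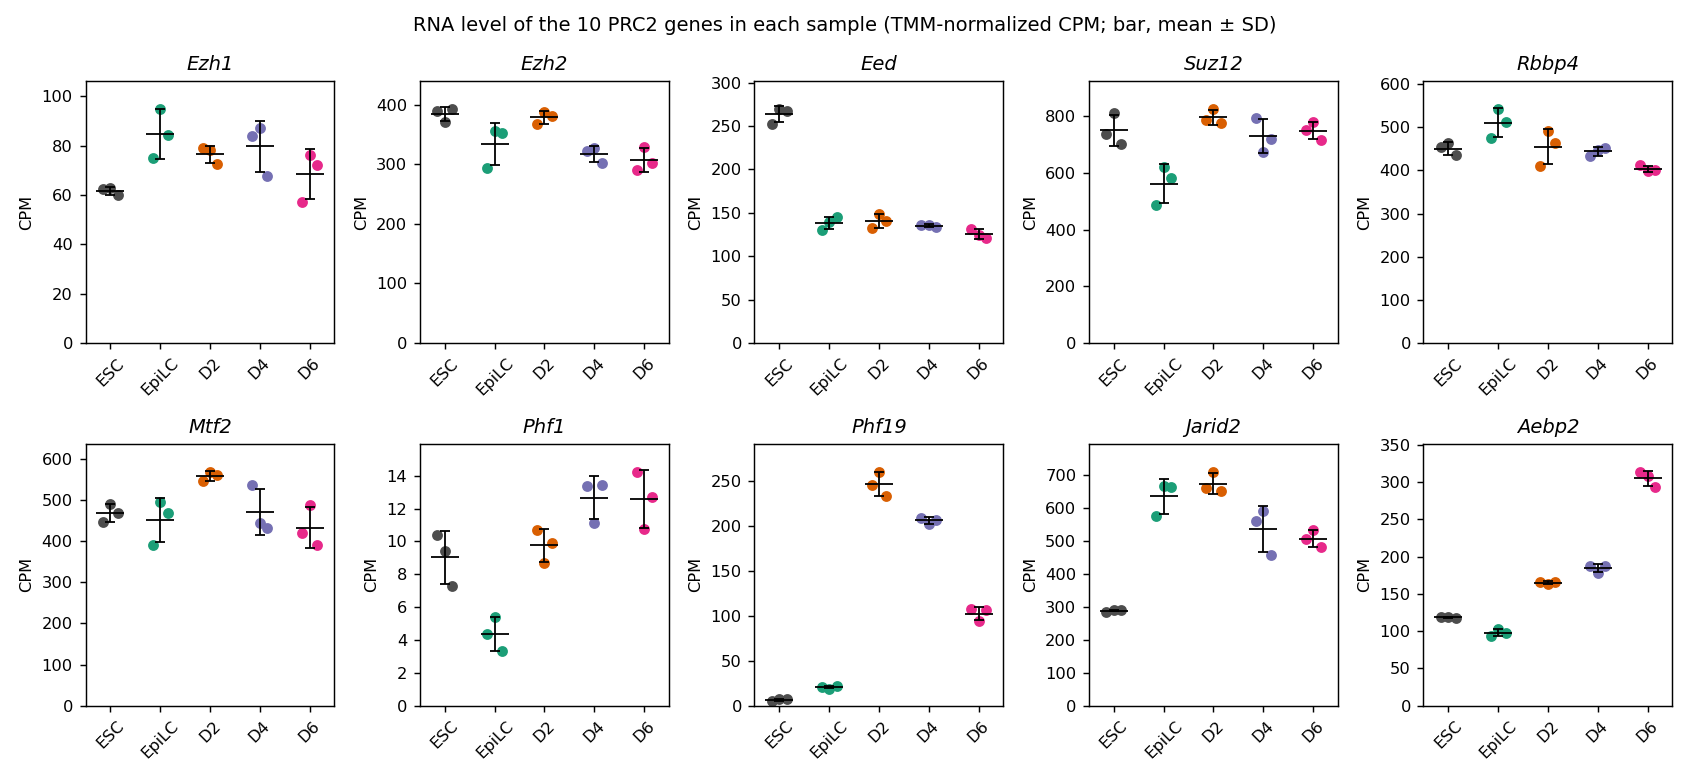
RNA level of each PRC2 gene (vertical axis, TMM-normalized CPM from 0) in the 5 groups (horizontal axis); points are single libraries and bars the mean ± SD. *Phf19* libraries lie at 5.47 to 21.5 CPM before induction and at 93.7 to 260 CPM in PGCLCs, *Eed* is split between ESCs and all later groups, and *Ezh2* stays between 291 and 393 CPM.

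Among the catalytic genes, *Ezh2* moved little. It stood at 389, 372 and 393 CPM in ESCs, at 294, 357 and 352 CPM in EpiLCs and at 367, 389 and 382 CPM in D2PGCLCs. In D4PGCLCs it stood at 322, 328 and 302 CPM, and in D6PGCLCs at 291, 330 and 302 CPM. All D4PGCLC and D6PGCLC libraries lay below all ESC and D2PGCLC libraries. From ESCs to D6PGCLCs *Ezh2* fell by 0.32 ± 0.08 (SE) on the log2 scale (edgeR adjusted p = 0.00226), and from D2PGCLCs to D6PGCLCs it fell by 0.30 ± 0.08 (edgeR adjusted p = 0.00614). The steps between neighbouring groups were weaker. EpiLCs against ESCs gave a log2 fold change of -0.20 ± 0.08 (edgeR adjusted p = 0.0416), which was lost in DESeq2, with its size factors and without the filter on low counts (adjusted p = 0.0671 to 0.0835). It was also lost without any single library other than EpiLC replicate 2 (log2 fold changes -0.23 to -0.10, adjusted p up to 0.301), the change nearest to 0 being that without EpiLC replicate 1. D4PGCLCs against D2PGCLCs gave -0.26 ± 0.08 (edgeR adjusted p = 0.0441), lost without any single library of these 2 groups (-0.28 to -0.22, adjusted p up to 0.149), without the filter and with only the 2 groups fitted.

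*Ezh1*, the paralog with the weaker enzyme activity, was lowest in ESCs, at 62.5, 62.7 and 59.8 CPM, and stood at 74.8, 94.8 and 84.4 CPM in EpiLCs. It rose at this step by a log2 fold change of 0.46 ± 0.11 (SE; edgeR adjusted p = 0.00224). Its later means were 76.4 ± 3.47 CPM in D2PGCLCs, 79.6 ± 10.5 CPM in D4PGCLCs and 68.5 ± 10.0 CPM in D6PGCLCs, and no step after EpiLC passed. D2PGCLCs were above ESCs by 0.31 ± 0.11 (edgeR adjusted p = 0.0297), a call lost without any single library other than D2PGCLC replicate 3 (0.29 to 0.32 where lost, adjusted p up to 0.0855). D6PGCLCs against ESCs gave 0.15 ± 0.11 (edgeR adjusted p = 0.271), and 0.28 (adjusted p = 0.0397; up to 0.672 over all alternatives) without D6PGCLC replicate 1, the library with the fewest detected genes, in which *Ezh1* was lowest of the 3 at 57.1 CPM. Per kb of merged exons, *Ezh2* made up 87.4% ± 0.570 of the *Ezh1* plus *Ezh2* level in ESCs and 81.5% ± 0.784 in EpiLCs. Its share was 84.7% ± 0.807 on day 2, 81.7% ± 1.39 on day 4 and 83.4% ± 1.43 on day 6. The libraries of neighbouring groups did not overlap in this share except between D4PGCLC and D6PGCLC (exact two-sided permutation p = 0.3). At the other 3 steps p was 0.1, the smallest that 3 against 3 allows, so no difference of shares could reach 0.05.

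Of the core genes, *Eed* fell at the exit from the naive state and stayed low. Its libraries stood at 253, 270 and 268 CPM in ESCs and at 130, 139 and 145 CPM in EpiLCs, a log2 fold change of -0.93 ± 0.07 (SE; edgeR adjusted p = 2.53e-09). The 9 PGCLC libraries ranged from 120 to 148 CPM, with no step passing, and D6PGCLCs were below ESCs (log2 fold change -1.07 ± 0.07, edgeR adjusted p = 5.02e-10). No library of any later group reached the lowest ESC value.

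*Suz12*, the member with the highest level per kb in every group, was lowest in EpiLCs. It stood at 737, 810 and 703 CPM in ESCs, at 487, 619 and 581 CPM in EpiLCs and at 786, 825 and 776 CPM in D2PGCLCs. It fell by 0.42 ± 0.09 on the log2 scale into EpiLCs (edgeR adjusted p = 0.000693) and rose by 0.50 ± 0.09 into D2PGCLCs (edgeR adjusted p = 0.000114). Its later means were 729 ± 60.3 CPM in D4PGCLCs and 749 ± 30.9 CPM in D6PGCLCs, with neither later step passing, and D6PGCLCs against ESCs gave a log2 fold change of 0.00 ± 0.09 (edgeR adjusted p = 0.986). Per kb of merged exons, the ratio of *Eed* to *Suz12* was 0.455 ± 0.0328 in ESCs, 0.320 ± 0.0275 in EpiLCs and 0.228 ± 0.00914 in D2PGCLCs, and 0.241 ± 0.0197 and 0.217 ± 0.00989 in D4PGCLCs and D6PGCLCs. On the longest transcripts the same ratios were higher in every group, at 0.745 ± 0.0538 in ESCs, 0.523 ± 0.0451 in EpiLCs and 0.373 ± 0.0150 in D2PGCLCs. These ratios are a description and were not tested.

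*Rbbp4* passed in none of the 7 comparisons. Its group means lay between 404 ± 6.94 CPM in D6PGCLCs and 510 ± 33.0 CPM in EpiLCs. EpiLCs against ESCs gave a log2 fold change of 0.18 ± 0.07 (edgeR adjusted p = 0.0507), which passed in DESeq2 (0.22, adjusted p = 0.00931; 0.00931 to 0.167 over all alternatives), and D2PGCLCs against EpiLCs gave -0.17 ± 0.07 (edgeR adjusted p = 0.0698), which also passed in DESeq2 (-0.21, adjusted p = 0.0097; 0.0097 to 0.344 over all alternatives).

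The largest changes were in the Polycomb-like gene *Phf19*, whose product binds CpG-rich DNA and a methylated lysine of histone H3. In ESCs it had 5.47, 7.23 and 7.54 CPM, from 150 to 225 counts per library. In EpiLCs it had 21.3, 18.9 and 21.5 CPM, a rise of 3.05-fold (log2 fold change 1.61 ± 0.11, edgeR adjusted p = 4.55e-10). In D2PGCLCs it had 245, 260 and 233 CPM, a further rise of 12.0-fold (log2 fold change 3.58 ± 0.10, edgeR adjusted p = 1.42e-14). By absolute log2 fold change this rise was at percentile 95.7 of all tested genes. The lowest D2PGCLC library was thus above the highest ESC and EpiLC libraries by a wide margin. *Phf19* then came down in part. D4PGCLCs had 209, 202 and 206 CPM, below every D2PGCLC library, with a log2 fold change of -0.26 ± 0.09 that did not pass in edgeR (adjusted p = 0.0737) and passed in DESeq2 (-0.27, adjusted p = 0.026; up to 0.205 over all alternatives). D6PGCLCs had 107, 93.7 and 106 CPM, a fall of 2.01-fold from D4PGCLCs (log2 fold change -1.01 ± 0.09, edgeR adjusted p = 3.59e-06). On day 6 the level was still 15.2-fold above ESCs (log2 fold change 3.92 ± 0.11, edgeR adjusted p = 5.75e-15), and on day 2 it was 36.5-fold above ESCs (5.19 ± 0.11, edgeR adjusted p = 2.22e-16).

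*Mtf2*, the Polycomb-like gene with the highest level in ESCs, changed far less. It had 447, 492 and 468 CPM in ESCs, 392, 496 and 469 CPM in EpiLCs and 547, 569 and 561 CPM in D2PGCLCs. The rise into D2PGCLCs was 0.31 ± 0.10 on the log2 scale (edgeR adjusted p = 0.016), and 0.22 (adjusted p = 0.0953) without EpiLC replicate 1, the lowest library. *Mtf2* then fell by 0.37 ± 0.10 from D2PGCLCs to D6PGCLCs (edgeR adjusted p = 0.00789), to 421, 488 and 390 CPM. D2PGCLCs against ESCs gave 0.25 ± 0.10 (edgeR adjusted p = 0.0452), a call lost in DESeq2 (adjusted p = 0.0502) and without any single library of the 2 groups (0.22 to 0.29, adjusted p up to 0.14).

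*Phf1*, the third Polycomb-like gene, was low throughout, with 91 to 542 counts per library. It had 10.4, 9.43 and 7.27 CPM in ESCs, 4.36, 5.39 and 3.34 CPM in EpiLCs and 10.7, 8.67 and 9.93 CPM in D2PGCLCs. It fell into EpiLCs (log2 fold change -1.04 ± 0.19, edgeR adjusted p = 0.000139) and rose into D2PGCLCs (1.16 ± 0.19, edgeR adjusted p = 4.22e-05). The means were 12.7 ± 1.32 CPM in D4PGCLCs and 12.6 ± 1.75 CPM in D6PGCLCs, and all of these libraries were above all D2PGCLC libraries, but neither comparison with D2PGCLCs passed. D6PGCLCs against ESCs gave 0.48 ± 0.18 (edgeR adjusted p = 0.0319). This call was lost without ESC replicate 2 or 3 or without D6PGCLC replicate 1 or 3 (0.35 to 0.51, adjusted p up to 0.15). Of the *Phf1* exon bases 39.3% lie opposite exons of *Cuta* on the other strand, and whether the counting used strand is not given in the sources used here, so its level is uncertain. The other members share at most 9.10% of their exon bases with any 1 other gene.

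Among the PRC2.2 cofactors, *Jarid2*, which guides the complex to chromatin and is itself a substrate that stimulates it, rose once and stayed high. It had 286, 291 and 290 CPM in ESCs and 576, 668 and 665 CPM in EpiLCs, a rise past every ESC library (log2 fold change 1.14 ± 0.09, edgeR adjusted p = 4.37e-09). In D2PGCLCs it had 661, 711 and 652 CPM, in D4PGCLCs 561, 593 and 459 CPM and in D6PGCLCs 505, 534 and 484 CPM. Every library after ESC was above every ESC library. From D2PGCLCs to D6PGCLCs it fell by 0.41 ± 0.09 on the log2 scale (edgeR adjusted p = 0.0014) and D6PGCLCs remained 1.76-fold above ESCs (log2 fold change 0.81 ± 0.09, edgeR adjusted p = 4.19e-07). The step from D2PGCLCs to D4PGCLCs alone gave -0.33 ± 0.09 (edgeR adjusted p = 0.0221). That call was lost without D2PGCLC replicate 1 or 2 (-0.34 and -0.29) or D4PGCLC replicate 3 (-0.23), the lowest of its group, and with only the 2 groups fitted (adjusted p up to 0.108).

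*Aebp2*, a zinc finger protein that stabilizes the core, had a different course and was highest at the end. It had 119, 119 and 118 CPM in ESCs and 93.0, 103 and 98.2 CPM in EpiLCs, a fall of 0.27 ± 0.07 on the log2 scale (edgeR adjusted p = 0.00175). It had 166, 163 and 166 CPM in D2PGCLCs, a rise of 1.68-fold (0.75 ± 0.07, edgeR adjusted p = 2.04e-08), and 188, 179 and 188 CPM in D4PGCLCs, a step that did not pass (0.16 ± 0.07, edgeR adjusted p = 0.118). In D6PGCLCs it had 314, 308 and 294 CPM, a further rise of 1.65-fold (0.73 ± 0.07, edgeR adjusted p = 3.11e-06). The D6PGCLC libraries were above those of every other group, and 2.57-fold above ESCs (log2 fold change 1.36 ± 0.07, edgeR adjusted p = 7.37e-12).

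**Figure D2:**
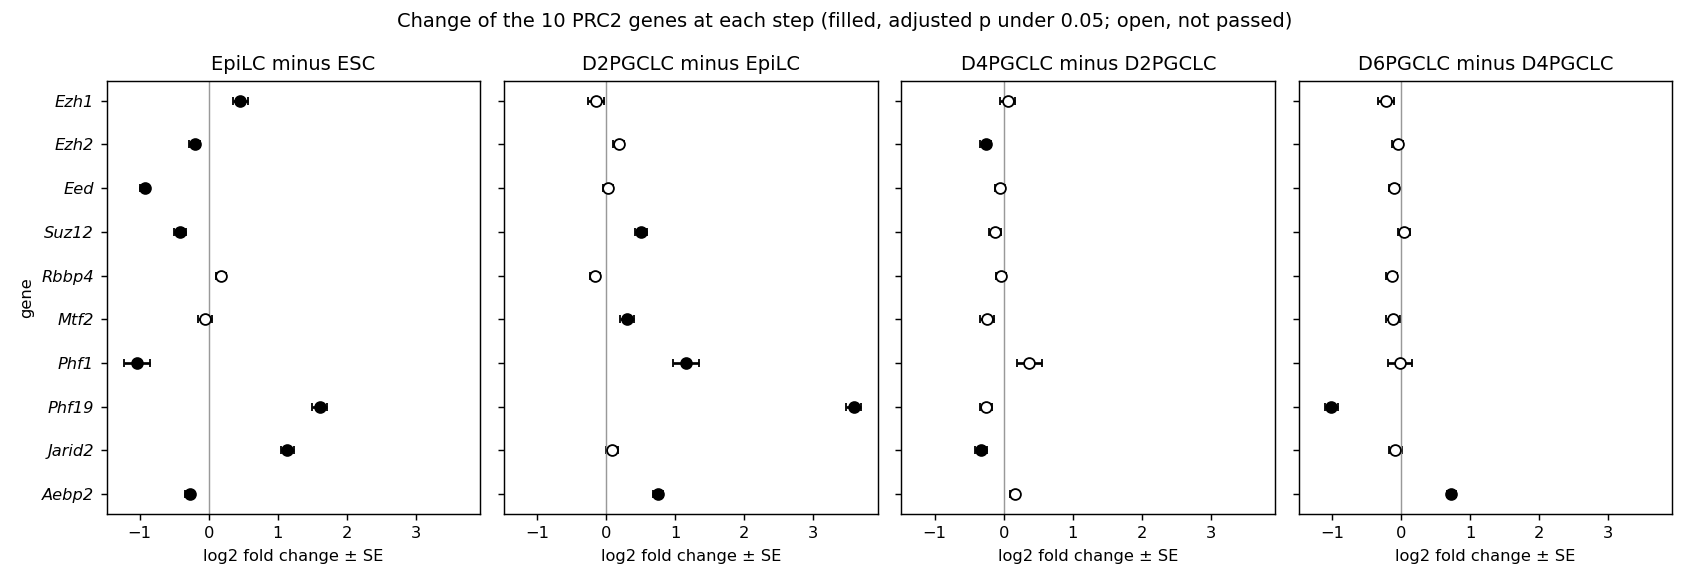
Log2 fold change (horizontal axis, bars ± SE) of each PRC2 gene at the 4 steps between successive groups; filled points passed (edgeR adjusted p under 0.05) and open points did not. The largest change shown is that of *Phf19* from EpiLC to D2PGCLC, at 3.58, and its value of -1.01 from D4PGCLC to D6PGCLC is the largest at that step.

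Counted over the 10 genes, 8 passed from ESCs to EpiLCs, a step at which 9495 of all 18090 tested genes passed. In EpiLCs against ESCs 3 were higher (*Ezh1*, *Phf19*, *Jarid2*; 26.3% of all tested genes were) and 5 lower (*Ezh2*, *Eed*, *Suz12*, *Phf1*, *Aebp2*; 26.2% of all), with *Phf19*, *Jarid2* and *Phf1* as DEGs (DEG share of all genes 26.2%). From EpiLCs to D2PGCLCs 5 were higher (*Suz12*, *Mtf2*, *Phf1*, *Phf19*, *Aebp2*; 27.2% of all) and 0 lower (26.0% of all), with *Phf19* and *Phf1* as DEGs (25.4% of all). In edgeR 1 was lower at an unadjusted p under 0.05, and in DESeq2 1 was lower, *Rbbp4*. The median log2 fold change of the 10 was -0.13 at the first step and 0.24 at the second, beside -0.01 and 0.00 over all tested genes.

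At each of the 2 later steps 2 members passed, and fewer genes passed in all, 2146 and then 2323 of 18090. From D2PGCLCs to D4PGCLCs 0 were higher in edgeR (7.26% of all; 1 at an unadjusted p under 0.05, 0 in DESeq2) and 2 lower, *Ezh2* and *Jarid2* (4.60% of all), neither of them a DEG (2.94% of all were). From D4PGCLCs to D6PGCLCs 1 was higher, *Aebp2* (6.03% of all), and 1 lower, *Phf19* (6.82% of all), the latter as a DEG (3.08% of all). Over the 4 days from D2PGCLC to D6PGCLC 1 was higher, *Aebp2* (19.5% of all), and 4 lower, *Ezh2*, *Mtf2*, *Phf19* and *Jarid2* (18.2% of all), with *Phf19* as the DEG (13.6% of all). Against ESCs, 5 were higher in D2PGCLCs, *Ezh1*, *Mtf2*, *Phf19*, *Jarid2* and *Aebp2* (25.6% of all), and 1 lower, *Eed* (23.4% of all), with *Phf19* and *Jarid2* as DEGs (24.3% of all). In D6PGCLCs against ESCs 4 were higher, *Phf1*, *Phf19*, *Jarid2* and *Aebp2* (27.7% of all), and 2 lower, *Ezh2* and *Eed* (26.0% of all), with *Phf19*, *Aebp2* and *Eed* as DEGs (26.2% of all). The comparisons share groups and are not independent of each other. With 10 members each call is 10% of the group, and no test of the group against all genes was run.

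Levels of different genes were compared per kb of merged exons, as shares of the RNA and not of the protein or of complexes. Within the Polycomb-like genes, *Mtf2* made up 95.4% ± 0.375 of the summed level in ESCs, *Phf1* 3.01% ± 0.590 and *Phf19* 1.55% ± 0.217. The *Phf19* share was 4.88% ± 0.812 in EpiLCs and then 32.6% ± 1.11 on day 2, 32.3% ± 2.19 on day 4 and 20.5% ± 2.77 on day 6. The *Mtf2* share went from 93.6% ± 0.883 in EpiLCs to 65.5% ± 1.03, 64.9% ± 2.35 and 75.9% ± 3.40 on days 2, 4 and 6. For *Phf19* and *Mtf2* the libraries overlapped only between D2PGCLC and D4PGCLC (exact two-sided permutation p = 0.9 and 0.8), and the other steps had the smallest possible p of 0.1. The *Phf1* share was between 1.49% ± 0.339 in EpiLCs and 3.63% ± 0.668 in D6PGCLCs. After adjustment over the 20 tests of shares and ratios the lowest p was 0.143.

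The summed level of the Polycomb-like genes was 86.2 ± 3.95 CPM per kb in ESCs and 84.7 ± 9.38 in EpiLCs, then 150 ± 3.63, 127 ± 10.6 and 99.96 ± 7.11 on days 2, 4 and 6. That of *Jarid2* plus *Aebp2* was 41.8 ± 0.248 CPM per kb in ESCs and 75.4 ± 5.87 in EpiLCs, then 86.2 ± 3.04, 74.1 ± 6.84 and 83.2 ± 3.34 on days 2, 4 and 6. The log2 ratio of *Jarid2* plus *Aebp2* to the Polycomb-like genes went from -1.04 ± 0.06 in ESCs to -0.16 ± 0.05 in EpiLCs. It went back to -0.80 ± 0.02 in D2PGCLCs and -0.78 ± 0.14 in D4PGCLCs, and to -0.26 ± 0.05 in D6PGCLCs. Only D2PGCLC and D4PGCLC overlapped (exact two-sided permutation p = 1.0), and the other steps had p = 0.1. Within the PRC2.2 pair the share of *Aebp2* was 28.8% ± 0.234 in ESCs and 13.2% ± 0.514 in EpiLCs, then 19.5% ± 0.899 on day 2, 25.5% ± 3.02 on day 4 and 37.3% ± 0.881 on day 6. With *Epop* left out, the EpiLC and D6PGCLC ratios were thus near each other with different proportions of the same cofactors. *Aebp2* had its lowest share in EpiLCs and its highest in D6PGCLCs, and *Jarid2* was the larger part in both.

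**Figure D3:**
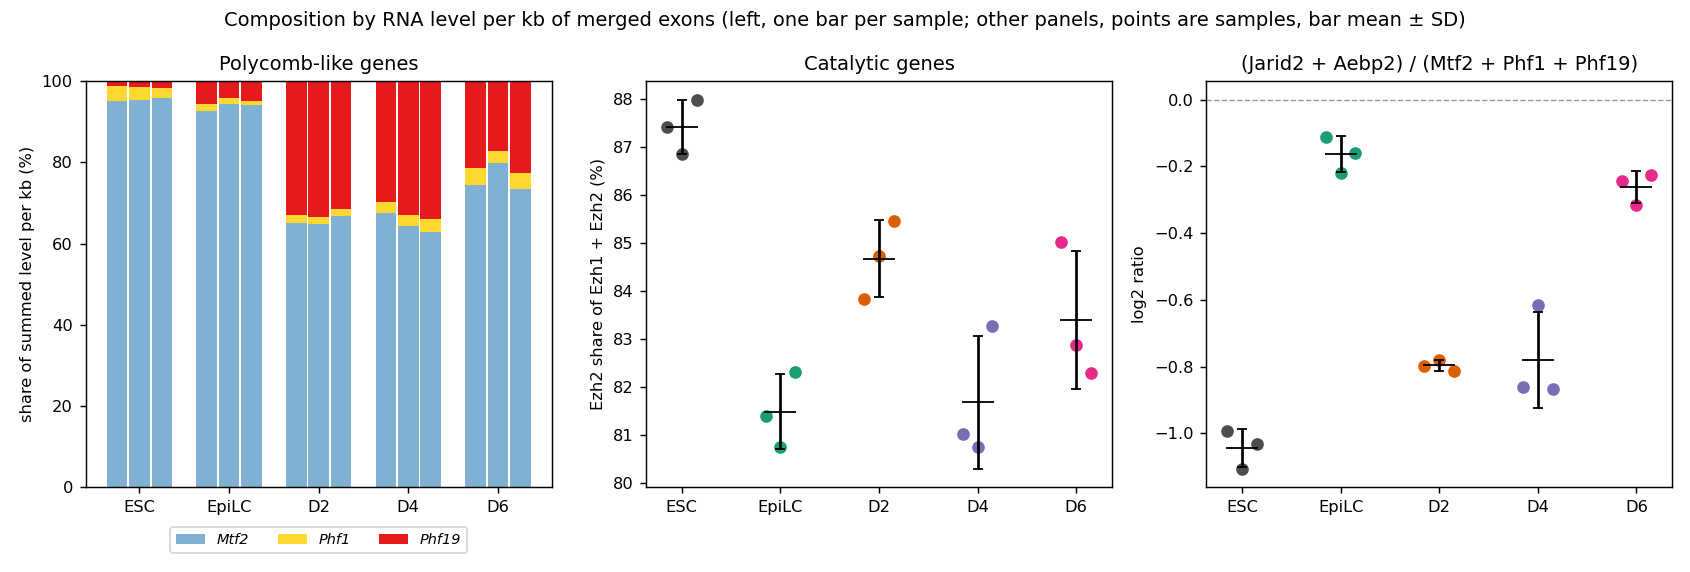
Left, share (%) of *Mtf2*, *Phf1* and *Phf19* in their summed level per kb, one stacked bar per library. Middle, *Ezh2* share (%) of *Ezh1* plus *Ezh2* on an axis that does not start at 0; right, log2 ratio of *Jarid2* plus *Aebp2* to the Polycomb-like genes; points are libraries, bars mean ± SD. *Phf19* takes 31.4% to 33.5% of the Polycomb-like level in D2PGCLCs and 1.32% to 1.75% in ESCs.

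Absolute levels per kb depend on the length taken for each gene: *Ezh2* has 6678 merged exon bases, and its longest transcript has 2787. On merged exons, *Suz12* was highest in D6PGCLCs at 151 ± 6.26 CPM per kb, followed by *Mtf2* at 76.0 ± 8.79, *Jarid2* at 52.2 ± 2.58, *Rbbp4* at 46.2 ± 0.794, *Ezh2* at 46.0 ± 3.03, *Eed* at 32.8 ± 1.49, *Aebp2* at 31.0 ± 1.04, *Phf19* at 20.3 ± 1.49, *Ezh1* at 9.20 ± 1.35 and *Phf1* at 3.61 ± 0.503. *Rbbp4* and *Ezh2* were not separated by more than their spread. The ranges of *Eed* and *Aebp2* overlapped, though *Eed* was above *Aebp2* within each D6PGCLC library. The order changed with the longest transcripts as lengths: *Suz12* at 171 ± 7.08 CPM per kb was followed by *Ezh2* at 110 ± 7.27, *Mtf2* at 107 ± 12.3 and *Rbbp4* at 86.7 ± 1.49, and *Eed* (60.8 ± 2.76) and *Jarid2* (60.8 ± 3.01) were level. In ESCs *Phf19* was at the bottom of the order on either length, with 1.34 ± 0.221 CPM per kb, below *Phf1* at 2.59 ± 0.459 on merged exons.

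Of the 5 other PRC2 components, 2 had means that moved in 1 direction across all 5 groups. *Epop*, a PRC2.1 subunit that links the complex to elongin, had 1149, 980 and 998 CPM in ESCs and 632, 501 and 511 CPM in EpiLCs (log2 fold change -0.93, edgeR adjusted p = 0.000102). It went on to 411 ± 37.4 CPM in D2PGCLCs, 317 ± 90.5 CPM in D4PGCLCs and 224 ± 44.1 CPM in D6PGCLCs, with a log2 fold change of -2.22 against ESCs (edgeR adjusted p = 3.34e-09). *Ezhip*, annotated as *AU022751* in this release, encodes an inhibitor of PRC2 known from germ cells. It had 0.949, 0.482 and 0.134 CPM in ESCs, from 4 to 26 counts, and 4.09, 3.32 and 3.78 CPM in EpiLCs (log2 fold change 2.85, edgeR adjusted p = 1.29e-06). It reached 6.69 ± 1.10 CPM in D2PGCLCs, 10.8 ± 1.78 CPM in D4PGCLCs and 13.7, 13.9 and 15.3 CPM in D6PGCLCs. Of its later comparisons, D2PGCLC against EpiLC (log2 fold change 0.84, edgeR adjusted p = 0.0117) and D6PGCLC against D2PGCLC (1.09, edgeR adjusted p = 0.00224) passed, and neither step between D2PGCLC and D6PGCLC passed alone. *Rbbp7*, the paralog of *Rbbp4*, lay between 333 ± 3.23 and 372 ± 5.22 CPM, and *Lcor* and *Lcorl* had group means of 11.3 to 19.3 CPM. Over the list 1 of 5 was higher and 1 lower in EpiLCs (26.3% and 26.2% of all tested genes), and 2 higher and 2 lower from EpiLCs to D2PGCLCs (27.2% and 26.0% of all).

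The demethylases that remove the PRC2 mark did not share a direction. *Kdm6a* had 56.4 ± 0.893 CPM in ESCs, 85.9 ± 7.46 CPM in EpiLCs and 91.5 ± 3.94 CPM in D2PGCLCs. It rose by 0.61 on the log2 scale into EpiLCs (edgeR adjusted p = 2.57e-05) and fell by 0.81 from D2PGCLCs to D6PGCLCs (edgeR adjusted p = 3.34e-06), to 52.1 ± 3.03 CPM. Its Y-linked homolog *Uty*, with little or no enzyme activity, also rose by 0.36 into EpiLCs (edgeR adjusted p = 0.00275) and fell by 0.67 from D2PGCLCs to D6PGCLCs (edgeR adjusted p = 1.77e-05). *Kdm6b* had 86.4 ± 2.11 CPM in ESCs and 51.9 ± 2.2 CPM in EpiLCs, a fall of 0.74 (edgeR adjusted p = 1.6e-05), and rose by 0.38 from D2PGCLCs to D6PGCLCs (edgeR adjusted p = 0.01).

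**Figure D4:**
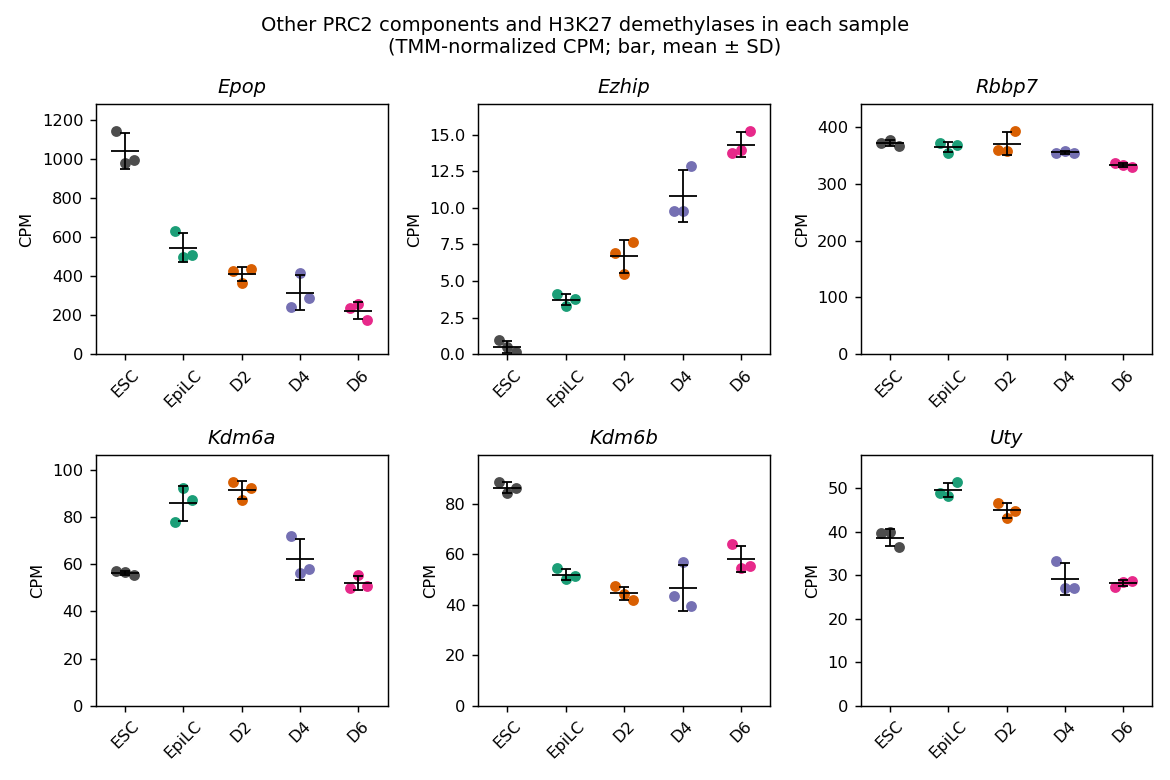
RNA level (vertical axis, TMM-normalized CPM from 0) of 3 other PRC2 components and the 3 genes of the H3K27 demethylase family in the 5 groups; points are libraries, bars mean ± SD. *Epop* libraries lie at 980 to 1149 CPM in ESCs and 175 to 260 CPM in D6PGCLCs, while *Ezhip* goes from at most 0.949 CPM to at least 13.7 CPM.

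A list of 12 transcription factor and cell cycle genes known as Polycomb targets had at most 35.2 mean CPM per gene in any group, and 10 of them were tested. From D2PGCLCs to D6PGCLCs 5 of the 10 were higher (19.5% of all tested genes were), with a median log2 fold change of 0.59 beside 0.00 over all genes. *Gata6*, an endoderm factor, was the highest of these (0.24 to 9.25 mean CPM, log2 fold change 5.22, edgeR adjusted p = 5.7e-07), and *T*, brachyury, a mesoderm factor, had the lowest value but only 0.0797 and 0.0241 mean CPM in these groups, too few counts for a fold. From ESCs to D6PGCLCs 3 were higher (27.7% of all) and 3 lower (26.0% of all), from *Hand1*, which rose by a log2 fold change of 5.36 (edgeR adjusted p = 5.11e-10), to *T*, which went from 14.8 to 0.0241 mean CPM (edgeR adjusted p = 2.77e-09). The endoderm marker list shares *Gata4*, *Gata6*, *Sox17* and *Foxa2* with these targets. Its sum was also highest in D6PGCLCs, with *Gata6* as the largest part. The part of endoderm cells in these values was not tested.

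The proliferation list moved with some PRC2 genes at some steps and against them at others. Of its 14 genes 9 were higher in EpiLCs than in ESCs (26.3% of all tested genes). There *Ezh2* was lower, a call lost in 5 of 6 fits with a library left out and 3 of 5 other settings. From EpiLCs to D2PGCLCs 7 of the 14 were lower (26.0% of all), where 5 PRC2 genes were higher. From D2PGCLCs to D6PGCLCs 8 of 14 were lower (18.2% of all), with a median log2 fold change of -0.21 beside -0.17 for the PRC2 genes and 0.00 over all tested genes. *Rrm2* fell most (-0.51, edgeR adjusted p = 0.000116) and *Cdk1* had the highest value (0.14, edgeR adjusted p = 0.165). Of 8 *E2f* genes, which encode the E2F factors, 3 were higher (27.2% of all) and 1 lower (26.0% of all) from EpiLCs to D2PGCLCs, from *E2f5* (0.79, edgeR adjusted p = 9.84e-06) to *E2f4* (-0.43, edgeR adjusted p = 0.00192). From D2PGCLCs to D6PGCLCs 5 of the 8 were lower (18.2% of all). The part of cell division in the values of the PRC2 genes was not tested.

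Across the 15 libraries, which share groups and so are not independent points, 9174 genes with a mean of at least 10 CPM were ranked by Pearson's r of log2(CPM + 1) with a member. Nearest to *Jarid2* were *Arhgap29* (r = 0.98), *Rhpn2* (0.98), *Sema3e* (0.98), *Usp25* (0.98) and *Sestd1* (0.98). Of these *Arhgap29* went from 5.69 mean CPM in ESCs to 49.2 CPM in EpiLCs and *Sema3e* from 0.322 to 42.8 CPM. Nearest to *Ezh2* were *Mfap1a* (r = 0.90), *Kif23* (0.89), *Gm14401* (0.88), *Kdm3a* (0.88) and *Zfp459* (0.87), and nearest to *Ezh1* were *Rpap3* (0.90), *Zfp740* (0.87), *Pdk1* (0.86), *Usp6nl* (0.86) and *Wdfy2* (0.86). Among the members themselves, the lowest r was between *Eed* and *Jarid2* (-0.84) and the highest between *Phf1* and *Aebp2* (0.78).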

How the data were processed

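RNA-seq libraries of 15 mouse samples were analysed, 3 in each of 5 groups taken from the sample labels. Per the labels, total RNA was prepared with the NEBNext Ultra II Directional kit, and the submitters' processing notes name Trim Galore, FastQC, STAR and the mm10 build without versions. The counting tool, its strand setting and its handling of reads that match several genes are not given in the sources used here. The authors deposited raw counts per Ensembl gene, with 55536 genes, all of which matched GENCODE M21 (GRCm38), and 22555021 to 42725681 counts per library. Counts were fitted over all 15 samples in edgeR 4.0.16 (R 4.3.3) with TMM, filterByExpr (minimum count of 10) and quasi-likelihood tests, Benjamini-Hochberg adjusted over 18090 genes. The submitters' study used DESeq2, run here (1.42.0) as an alternative. Levels per kb are TMM CPM over the merged exons of M21. Shares and ratios were compared between successive groups by exact two-sided permutation tests (SciPy 1.17.1). The fits were tested on simulated data with known changes.

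The members and the gene lists were chosen with earlier results of these data known, and the promoter motifs after the levels were seen. Named were all 10 members, the listed genes with the highest and lowest change of a comparison, and the 5 genes nearest to *Ezh2*, *Ezh1* and *Jarid2* by correlation; the lists of other PRC2 components and of demethylases are short and were named whole. Alternatives left out each library in turn, replaced the tool or the size factors by those of DESeq2, dropped the count filter, blocked on the replicate number, used 2 groups per fit, set a fold-change cutoff, or took the longest transcript as gene length. No 2 replicates were alike within sampling noise: the chi-square statistic per gene between replicates was at least 8.82.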

Additional observations from a re-analysis of the deposited data

How the results depend on the processing

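Of the 34 calls of single members over 7 comparisons, 27 kept their direction and an adjusted p under 0.05 in every alternative fit, and 7 were lost in at least 1, 7 on leaving out a library and 4 under another setting. All calls of *Phf19*, *Aebp2*, *Eed* and *Suz12* were among the 27. With the replicate block in the fit, *Rbbp4* in EpiLCs against ESCs passed (0.18, edgeR adjusted p = 0.044), and no other member's call changed. Deviations of samples with the same number correlated at -0.184 to 0.358 over 30 pairs of samples (mean 0.0703, against -0.0352 for other numbers). Deviations from a group mean cancel out within the group, so these means are tied to each other. The check therefore cannot show whether the numbers pair the samples. With a cutoff of 1 on the log2 fold change, 1 member was lower in EpiLCs against ESCs and 2 were higher in D2PGCLCs against EpiLCs. For D4PGCLC against D2PGCLC 0 were lower and for D6PGCLC against D4PGCLC 0 higher. For D6PGCLC against D2PGCLC 0 were higher and 1 lower, for D2PGCLC against ESC 2 higher and 0 lower, and for D6PGCLC against ESC 2 higher and 1 lower. The count of lower members in D2PGCLCs against EpiLCs went from 0 to 1 (*Rbbp4*) in DESeq2 and with DESeq2's size factors, and was 0 to 1 with a library left out. The count of lower members in D4PGCLCs against D2PGCLCs went from 2 to 1 without the filter and to 0 with only the 2 groups compared, and was 0 to 2 with a library left out; the count of higher members in D2PGCLCs against ESCs was 3 to 5. With the longest transcript as length, the *Ezh2* share fell by 4.76 percentage points from ESCs to EpiLCs, where on merged exons it fell by 5.93. The log2 ratio of *Jarid2* plus *Aebp2* to the Polycomb-like genes rose by 0.789 in place of 0.880. The causes were not tested.

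The sign changed only for members that passed in neither fit. In DESeq2 and with its size factors, *Eed* in D2PGCLCs against EpiLCs was -0.0252 and -0.0250 (left-out range -0.0139 to 0.0684), and *Phf1* in D6PGCLCs against D4PGCLCs was 0.0100 and 0.0101, and 0.00326 with only the 2 groups (left-out range -0.111 to 0.0838). *Suz12* in D6PGCLCs against ESCs was 0.00256 without the filter and 0.0273 with only the 2 groups (-0.0359 to 0.0541). Left-out ranges that crossed 0 were -0.112 to 0.0550 for *Mtf2* in EpiLC against ESC, -0.101 to 0.0217 for *Rbbp4* in D4PGCLC against D2PGCLC, -0.0126 to 0.164 for *Ezh1* in D4PGCLC against D2PGCLC, -0.0169 to 0.0989 for *Suz12* in D6PGCLC against D4PGCLC, -0.0434 to 0.00728 for *Ezh2* in D2PGCLC against ESC, -0.00848 to 0.233 for *Phf1* in D2PGCLC against ESC, -0.0380 to 0.0849 for *Rbbp4* in D2PGCLC against ESC. Among the members and other PRC2 components shown, depth limits *Phf1* and *Ezhip*, at 91 to 542 and 4 to 632 counts per library. Of the listed targets, *Gata6* had 4 to 13 counts in D2PGCLCs, *Hand1* 4 to 13 in ESCs and *T* 0 to 5 in D2PGCLCs.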
